A study of Homo sapiens with 20 samples.

Results

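The zinc finger genes of human chromosome 19 were taken as all genes with a symbol made of ZNF and a number, with an optional closing A or B, that the count files place on that chromosome, and with a mean of at least 1 CPM (the fragments of a gene scaled to a fixed library total) over the 16 siRNA libraries. The count files list 245 such symbols among 57820 genes, and 211 of them reached the threshold. The cells were T47D, an established human luminal breast cancer line. They were given siRNA that served as a control (si-control) or that targeted BRG1 (the product of SMARCA4, an ATPase of the SWI/SNF chromatin remodellers), CBX3 (HP1 gamma, a reader of methylated histone H3) or FOXA1 (a pioneer transcription factor). Cells were collected at 0 h, before hormone, or after 6 h of R5020, a synthetic progestin, at 10 nM, which gave 8 groups with 2 libraries each. All groups passed through medium with charcoal-treated serum and a night without serum before hormone, as far as the labels give protocols (they give none for si-CBX3 0 h replicate 1). Further RNA libraries from cells without siRNA (1 each at 0 h and 6 h) and BRG1 ChIP-seq peak lists (1 each at 0 and 30 min) were deposited. The title of the series asks about gene repression by progestin and the part of BRG1 in it.

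Most of these genes encode proteins with a KRAB domain followed by a row of C2H2 zinc fingers, each of which can contact a few bases of DNA. The KRAB domain recruits TRIM28, which brings SETDB1 to write methylation of histone H3 lysine 9, and the HP1 proteins CBX1, CBX3 and CBX5 bind that mark. The genes arose by repeated tandem duplication, stand side by side in clusters, and their own 3 prime ends are known to carry the same mark. Many of the proteins silence transposable elements.

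The promoters of 5 members are printed because the results turn on these genes. ZNF765, ZNF865 and ZNF493 had the largest rise under si-BRG1, si-CBX3 and si-FOXA1, and ZNF442 and ZNF766 were the members with a deposited BRG1 peak near the gene start. Each run gives the 250 bases before the start of the gene in RefSeq, 5 prime to 3 prime on the gene's strand, in GRCh38.p14, with every CG dinucleotide in capitals. ZNF765 lies at chr19:53394899-53395148 (plus strand), ZNF865 at chr19:55605397-55605646 (plus strand), ZNF493 at chr19:21396883-21397132 (plus strand), ZNF442 at chr19:12365684-12365933 (minus strand) and ZNF766 at chr19:52269337-52269586 (plus strand).
ZNF765: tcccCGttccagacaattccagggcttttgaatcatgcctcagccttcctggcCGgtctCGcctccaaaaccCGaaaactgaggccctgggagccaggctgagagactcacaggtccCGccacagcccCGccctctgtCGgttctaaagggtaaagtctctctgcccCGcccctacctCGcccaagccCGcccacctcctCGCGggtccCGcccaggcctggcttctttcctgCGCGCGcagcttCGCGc
ZNF865: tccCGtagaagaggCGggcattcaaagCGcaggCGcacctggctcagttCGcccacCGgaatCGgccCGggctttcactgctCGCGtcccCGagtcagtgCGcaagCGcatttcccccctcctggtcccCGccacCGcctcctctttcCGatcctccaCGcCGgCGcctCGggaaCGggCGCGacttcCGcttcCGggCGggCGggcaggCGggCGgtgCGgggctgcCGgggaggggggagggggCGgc
ZNF493: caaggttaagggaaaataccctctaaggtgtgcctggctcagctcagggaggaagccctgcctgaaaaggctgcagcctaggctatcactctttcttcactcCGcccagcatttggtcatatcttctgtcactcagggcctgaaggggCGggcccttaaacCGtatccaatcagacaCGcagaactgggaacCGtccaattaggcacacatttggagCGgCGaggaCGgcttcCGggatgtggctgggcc
ZNF442: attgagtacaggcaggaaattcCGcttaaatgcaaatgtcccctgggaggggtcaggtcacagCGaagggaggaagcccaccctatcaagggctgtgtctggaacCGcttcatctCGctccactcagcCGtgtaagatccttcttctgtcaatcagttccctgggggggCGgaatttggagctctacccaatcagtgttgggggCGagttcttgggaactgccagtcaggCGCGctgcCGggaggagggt
ZNF766: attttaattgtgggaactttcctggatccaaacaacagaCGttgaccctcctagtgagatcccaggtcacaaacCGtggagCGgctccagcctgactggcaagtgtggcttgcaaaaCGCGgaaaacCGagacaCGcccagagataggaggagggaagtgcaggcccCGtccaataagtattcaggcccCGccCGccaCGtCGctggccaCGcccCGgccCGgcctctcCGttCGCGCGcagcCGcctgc
These runs hold 18 (ZNF765), 32 (ZNF865), 9 (ZNF493), 10 (ZNF442) and 20 (ZNF766) CG dinucleotides. RefSeq promoters (250 bases before to 50 after the start) were found for 189 of the 211 members. Their median GC content was 60.7% with a median of 20 CG dinucleotides, against 58.7% and 14 over all 35116 promoters of the table. TGTTCT, the core of a progesterone receptor site, was found on either strand in 10.2% of 236 member promoters and in 14.8% of all, and the forkhead motif TGTTTAC in 0.847% and 3.42%. Neither motif was in the 5 printed runs.

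The libraries held 50017255 to 74374857 assigned fragments. Each siRNA lowered its target: SMARCA4 was at 4.99 and 5.90 CPM in si-BRG1 against 76.6 and 65.7 in si-control at 0 h, CBX3 at 6.80 and 6.37 in si-CBX3 against 241.9 and 266.5, and FOXA1 at 61.4 and 62.8 in si-FOXA1 against 389.1 and 408.0. SMARCA4 was at 184.5 and 175.1 in si-CBX3 and at 182.8 and 186.9 in si-FOXA1 at 0 h, and its part in the results for these siRNAs was not tested. Of 9 luminal markers, 8 were at 44.4 CPM or more in every library and TFF1 at 0 to 1.57, while the leukocyte markers PTPRC and CD3E stayed below 0.05. Some markers moved with si-FOXA1. Of 5 basal and mesenchymal markers 4 were tested, and in si-FOXA1 2 were higher and 1 lower than in si-control at 0 h and 3 higher and 1 lower at 6 h. CDH2 was at 0.439 to 0.680 CPM in the si-control libraries and at 2.998 to 4.67 in those of si-FOXA1, KRT14 at 0 to 0.0471 and at 0.289 to 0.499, and KRT5 at 0.0157 to 0.151 and at 0.0433 to 1.71, while VIM was at 4.84 to 5.81 and at 1.91 to 2.25. ZEB1, which was not tested, was at 0.143 CPM or below in every library. The endothelial gene CDH5 was at 0 to 0.0314 in si-control and at 0.0891 to 0.715 in si-FOXA1. Of the luminal markers, FOXA1 itself among them, 2 (22.2%, against 40.0% of all genes tested) were higher and 5 (55.6%, against 33.5%) lower in si-FOXA1 at 0 h. At 6 h 4 (44.4%, against 40.1%) were higher and 3 (33.3%, against 34.5%) lower, near the background. XBP1 was at 1690 to 2106 CPM in si-control and at 582.4 to 655.7 in si-FOXA1. KRT8 and KRT18 went the other way at 0 h, from 2447 and 2511 to 4397 and 4698 CPM and from 1291 and 1261 to 1760 and 1865. TFF1 was at 1.25 or more in si-control and at 0.567 or less in every knockdown library. The part of these markers in the changes of the members was not tested. The si-CBX3 and si-FOXA1 files were counted with 1 thread and the si-BRG1 and si-control files with 8, so the counting runs cannot be told apart from a change that si-CBX3 and si-FOXA1 both show. Nothing in the labels says that the replicates are independent cultures, and the p-values rest on the spread between these libraries, which may be technical. Levels are CPM scaled by TMM unless said otherwise, changes are log2 fold changes with their standard error (SE), and a gene is called where edgeR's quasi-likelihood test gave an adjusted p below 0.05 over the 18806 genes tested, with n = 2 libraries in each group.

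All 211 members passed the filter on low counts. Their mean CPM ran from 1.12 (ZNF284) to 81.0 (ZNF146), with a median of 8.21. Per kb of exon the median was 1.76 CPM against 2.55 over all genes tested, and ZNF552 (26.0 CPM per kb), ZNF146 (19.5), ZNF561 (9.43), ZNF134 (7.76) and ZNF317 (7.68) were the most abundant. ZNF284 (1.12 CPM), ZNF546 (1.14) and ZNF331 (1.27) lay just above the threshold, and ZNF578 (0.971), ZNF730 (0.949) and ZNF221 (0.851) just below it. Of the 34 symbols left out, 21 passed the filter on low counts. By strand, 117 members were on the plus and 94 on the minus strand, and 67 shared exon bases with another gene on the same strand (25 of them over 10% of their exon length). Fragments from such bases, and from stretches that near-identical neighbours share, may be lost or given to the wrong gene, so values of single paralogs are uncertain to that extent.

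Splitting the 245 symbols wherever neighbours were over 1 Mb apart gave 16 groups on hg19, 7 of which had 10 or more members and held 193 of the 211. They are called clusters A to G from the short-arm end. Cluster A (13 members) spanned chr19:7069455-9903856 and cluster B (19) chr19:11594242-12750912. Cluster C (26) spanned chr19:19779605-24312654, next to the centromere. On the long arm lay cluster D (26, chr19:36673188-38307940), cluster E (20, chr19:44029649-45579846), cluster F (35, chr19:52074551-54083523) and cluster G (54, chr19:55987699-58992597), the last of them toward the telomere.

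Summed over the members, the level rose in every knockdown before hormone. The sum was 1920 ± 130.3 CPM (SD, n = 2; not TMM-scaled) in si-control, 2444 ± 53.9 in si-BRG1, 2407 ± 57.7 in si-CBX3 and 3046 ± 120.6 in si-FOXA1. After 6 h of hormone it was 1623 ± 44.1 in si-control, 2273 ± 162.0 in si-BRG1, 2023 ± 68.0 in si-CBX3 and 3177 ± 168.1 in si-FOXA1. No library of a knockdown fell within the range of the si-control libraries of the same time. With TMM scaling the sums at 0 h were 2022, 2430, 2341 and 2757 in the same order, and at 6 h 1794, 2365, 2110 and 2873. In RNA from whole cultures, fewer cells with a transcript and less RNA per cell cannot be told apart.

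**Figure D1:**
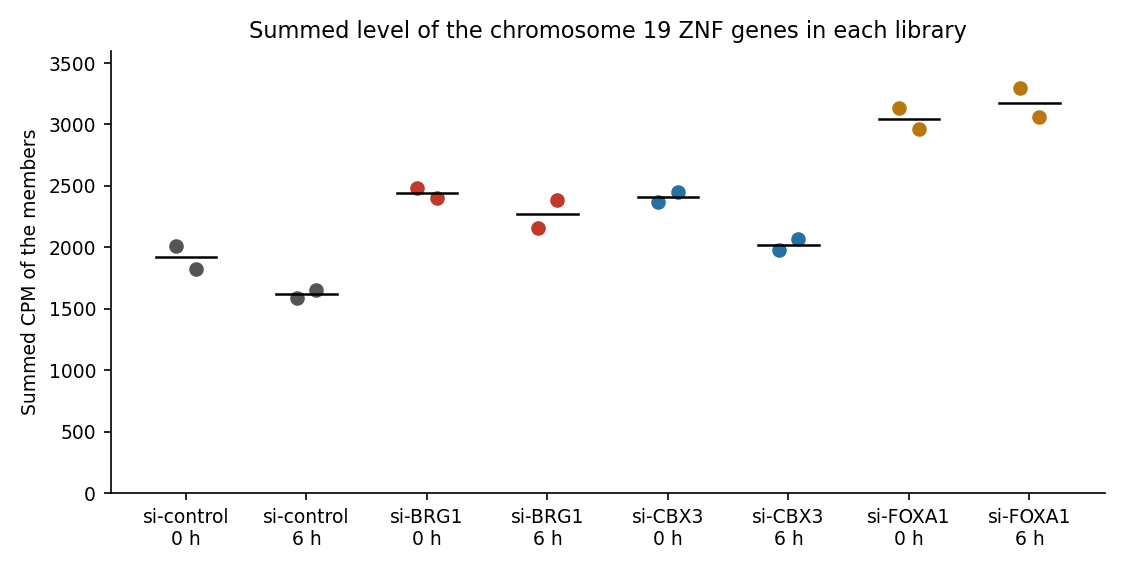
Summed CPM of the 211 members (vertical axis, from 0) in each library (points) of the 8 groups (horizontal axis), with the group mean as a bar. The si-control libraries lie between 1591 and 2012, below every knockdown library of the same time, and the si-FOXA1 libraries between 2960 and 3296.

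Knockdown of BRG1 raised many of these genes and lowered few. At 0 h, 78 of the 211 members (37.0%) were called higher in si-BRG1 than in si-control, against 15.1% of all genes tested, and 5 (2.37%) were called lower, against 13.4%. The median change was 0.25 over the members and 0.03 over all genes tested. ZNF genes with a number that lie on other chromosomes (212 at the same threshold) gave 74 higher (34.9%) and 13 lower (6.13%). The other chromosome 19 genes (743) gave 218 (29.3%) and 75 (10.1%). The share called higher among ZNF genes elsewhere was thus near that of the members. The largest rises were in clusters C, D and F.

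ZNF765 (ENSG00000196417.8, chr19:53893046-53930574, cluster F), whose promoter is printed above, was at 5.35 and 4.82 CPM in si-control and at 15.0 and 13.8 in si-BRG1 at 0 h. The groups did not overlap, and the rise was 2.83-fold (SE 0.11 on the log2 scale, adjusted p = 9.02e-08). ZNF83 (chr19:53097313-53193749, cluster F) went from 9.30 and 7.40 CPM to 20.1 and 21.8, a rise of 1.32 (SE 0.14, adjusted p = 3.66e-06). ZNF681 (1.18) of cluster C, ZNF850 (1.11) of cluster D and ZNF761 (1.10), ZNF525 (1.09), ZNF836 (1.09) and ZNF468 (1.08) of cluster F followed. ZNF836 shares 13.1% of its exon bases with another gene of its strand. The called falls were small: ZNF460 (-0.45), ZNF461 (-0.39), ZNF529 (-0.33), ZNF433 (-0.32) and ZNF561 (-0.32). ZNF460, the largest of them, was at 3.09 and 3.55 CPM in si-control and 2.52 and 2.33 in si-BRG1. These falls rested on single libraries, since 1 was called without si-BRG1 replicate 1, 0 without si-BRG1 replicate 2 and 2 without si-control replicate 2.

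Knockdown of CBX3, itself a reader of the mark laid down by the KRAB pathway, moved the members in both directions. At 0 h, 80 members (37.9%) were called higher, against 28.1% of all genes tested, and 51 (24.2%) lower, against 26.0%. The share of falls was near the background. The median change was 0.10 over members and 0.05 over all genes tested, and the member median was 0.03 without si-control 0 h replicate 2. ZNF genes elsewhere gave 96 higher (45.3%) and 45 lower of 212, and other chromosome 19 genes 379 (51.0%) and 141 of 743. The share called higher among the members was thus above that of all genes tested but below that of both these sets. The share called lower among the members was above that of both sets.

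ZNF865 (ENSG00000261221.1, chr19:56116771-56128635, cluster G) was at 3.73 and 3.28 CPM in si-control and 13.5 and 11.98 in si-CBX3. Both si-CBX3 libraries lay far above both si-control libraries, and the rise was 3.62-fold (1.86, SE 0.17, adjusted p = 1.08e-07). ZNF585B (1.70) of cluster D, ZNF579 (1.65) and ZNF628 (1.45) of cluster G, ZNF83 (1.64), ZNF358 (1.59) of cluster A, ZNF101 (1.39) of cluster C and ZNF793 (1.34) of cluster D were next. ZNF358 shares 20.2% and ZNF585B 10.1% of exon bases with another gene. ZNF628, ZNF579 and ZNF865 stand near one another at the start of cluster G.

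The falls under si-CBX3 were led by ZNF331 (chr19:54024235-54083523), an imprinted gene at the end of cluster F. It was at 0.972 and 1.16 CPM in si-control and at 0.430 and 0.294 in si-CBX3, a fall of 1.55 on the log2 scale (SE 0.28, adjusted p = 0.000171) at a level near the threshold for membership. ZNF420, known as a regulator of p53, went from 16.3 and 16.7 CPM to 7.02 and 7.49 (-1.18, SE 0.11, adjusted p = 9.24e-08), with no overlap of the libraries. ZNF566 (-1.18), ZNF583 (-1.16), ZNF649 (-0.97), ZNF383 (-0.90), ZNF460 (-0.90) and ZNF613 (-0.86) also fell. Of these 8, ZNF420, ZNF566 and ZNF383 belong to cluster D and ZNF331, ZNF649 and ZNF613 to cluster F.

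Knockdown of FOXA1 gave the largest rises of the 3. At 0 h, 124 members (58.8%) were called higher, against 40.0% of all genes tested. Of the 211 members 40 were called lower, a smaller share than the 33.5% of all genes tested. The median change was 0.50 over the members and 0.11 over all genes tested. A rise of at least 2-fold was called in 55 of the 211 members and in 4375 of the 18806 genes tested, shares near one another. ZNF genes elsewhere gave 141 higher (66.5%) and 35 lower (16.5%), and other chromosome 19 genes 374 (50.3%) and 225 (30.3%). The share called higher among ZNF genes elsewhere was thus above that of the members.

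ZNF493 (ENSG00000196268.7, chr19:21579921-21610375, cluster C) was at 2.92 and 2.87 CPM in si-control and 24.95 and 21.7 in si-FOXA1. That was a rise of 8.06-fold (3.01, SE 0.20, adjusted p = 7.40e-10), and all other libraries at 0 h lay at 5.54 CPM or below. ZNF83 went from 9.30 and 7.40 CPM to 69.8 and 64.0, a rise of 7.998-fold (SE 0.14 on the log2 scale, adjusted p = 9.94e-12). ZNF793 (2.35), ZNF681 (2.29), ZNF43 (2.05), ZNF738 (2.03), ZNF358 (1.98) and ZNF69 (1.98) followed, of which ZNF681, ZNF43 and ZNF738 lie in cluster C with ZNF493. The largest fall was that of ZNF613 (chr19:52430400-52452012, cluster F), from 20.1 and 18.7 CPM to 6.60 and 6.19 (-1.60, SE 0.09, adjusted p = 1.13e-10). ZNF223 (-1.43), ZNF420 (-1.23), ZNF540 (-1.19), ZNF350 (-1.01), ZNF230 (-0.96), ZNF30 (-0.91) and ZNF615 (-0.90) fell as well. ZNF350, also called ZBRK1, is a repressor known to bind BRCA1, and went from 24.6 and 18.6 CPM to 10.3 and 11.1. ZNF223 shares 45.4% of its exon bases with another gene.

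ZNF83 was thus among the 8 largest rises in all 3 knockdowns, and the 3 comparisons share the 2 si-control libraries. Its level, in CPM, was 8.35 ± 1.34 (SD, n = 2) in si-control, 20.9 ± 1.17 in si-BRG1, 26.0 ± 0.684 in si-CBX3 and 66.9 ± 4.12 in si-FOXA1 at 0 h. The 4 groups do not overlap. ZNF765 behaved otherwise, with 5.08 ± 0.374, 14.4 ± 0.865, 12.4 ± 0.302 and 13.5 ± 0.383 CPM, so that all 6 knockdown libraries lay between 12.2 and 15.0 CPM, above si-control.

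**Figure D2:**
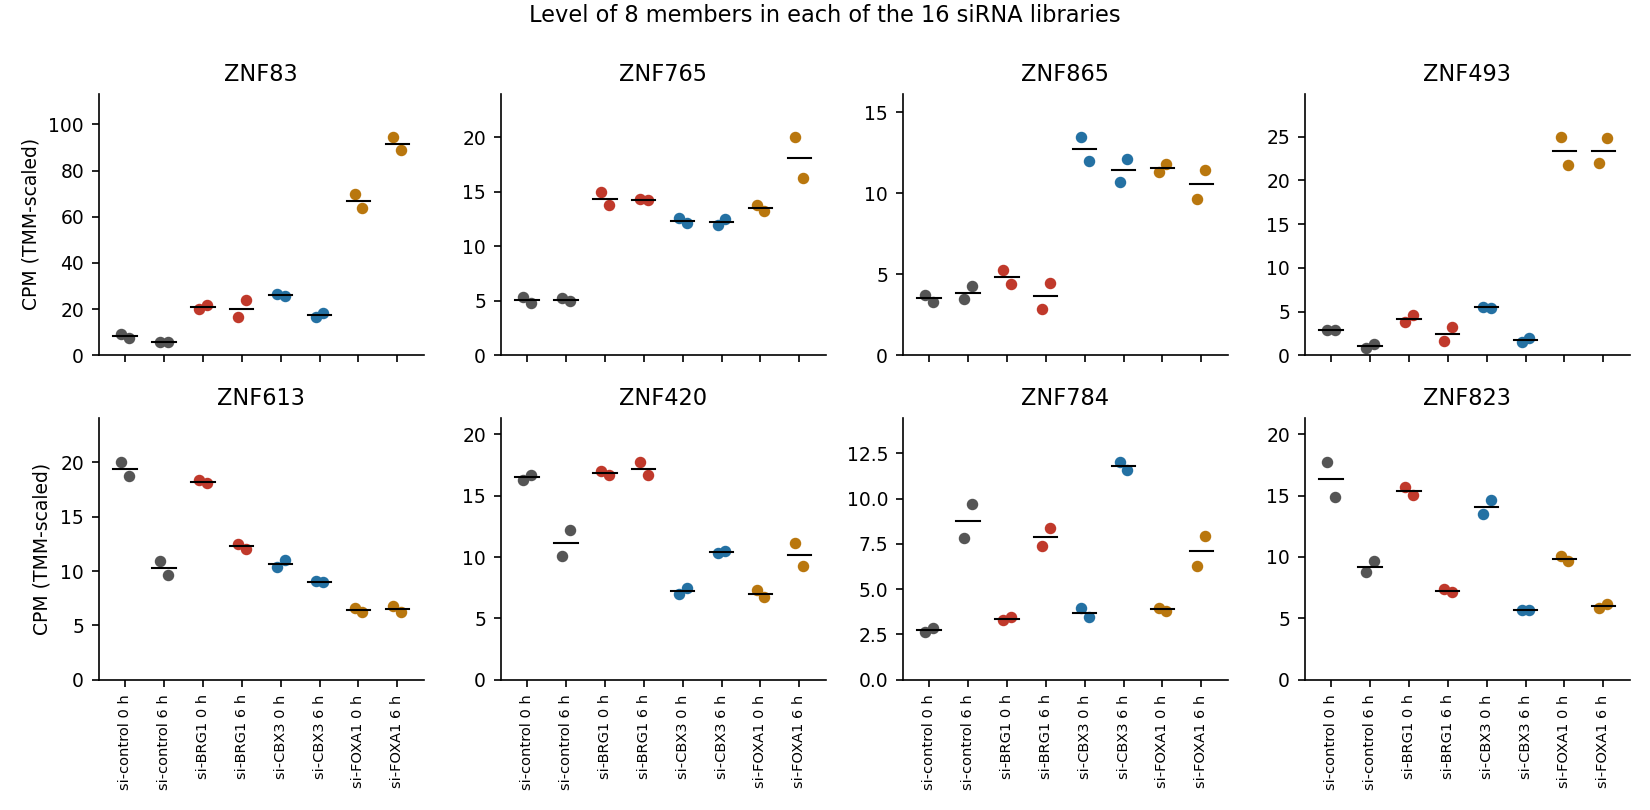
CPM scaled by TMM (vertical axes, each from 0) of 8 members in the 16 siRNA libraries (points) by group (horizontal axes), with group means as bars. ZNF83 and ZNF493 are highest in si-FOXA1, ZNF865 is at 9.66 CPM or more in si-CBX3 and si-FOXA1 and at 5.26 or less elsewhere, and ZNF784 rises and ZNF823 falls with hormone under every siRNA.

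si-FOXA1 and si-CBX3 were also compared with each other at 0 h, where no si-control library enters. In that comparison 105 members (49.8%) were higher in si-FOXA1, against 34.2% of all genes tested, and 33 (15.6%) lower, against 30.6%. The number lower was 20 without si-FOXA1 replicate 2. ZNF331 was at 1.73 and 1.58 CPM in si-FOXA1 against 0.430 and 0.294 in si-CBX3, a difference of 2.19 (SE 0.26, adjusted p = 1.46e-06). ZNF493 (2.09) and ZNF90 (2.02) were the next largest, and ZNF28 (-1.14), ZNF233 (-1.08) and ZNF490 (-0.92) the most negative. ZNF28, of cluster F, was at 54.4 and 56.8 CPM in si-CBX3 and at 26.2 and 24.4 in si-FOXA1, which overlapped the 26.5 and 24.1 of si-control. ZNF490 shares 61.3% of its exon bases with another gene.

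The counts differed between the clusters, and no test was made of that. The shares of all genes tested called higher and lower at 0 h were 15.1% and 13.4% for si-BRG1, 28.1% and 26.0% for si-CBX3 and 40.0% and 33.5% for si-FOXA1. Under si-BRG1 at 0 h the cluster medians were 0.63 in F, 0.46 in C, 0.40 in A, 0.21 in G, 0.20 in B, 0.16 in D and 0.03 in E. In cluster F 22 of 35 members (62.9%) were called higher and none lower, in C 15 of 26 (57.7%) and none, and in E 4 of 20 and none. Under si-CBX3 the medians were 0.54 in F and 0.53 in A but between -0.03 and 0.09 in the other 5, where called rises and falls mixed (8 and 8 in cluster D, 30.8% each, and 21 and 13 in cluster G, 38.9% and 24.1%). The shares of cluster D were near those of all genes. Under si-FOXA1 the median reached 1.28 in cluster C, where 25 of 26 members (96.2%) were called higher and 1, ZNF14, lower. It was 0.88 in A, 0.61 in F, 0.50 in B, 0.39 in G, 0.04 in D and -0.14 in E. Cluster E had 7 members called higher (35.0%) and 8 lower (40.0%) under si-FOXA1, shares near the background, and among the latter were ZNF223 and ZNF230. In the direct comparison of si-FOXA1 with si-CBX3, 24 of the 26 members of cluster C (92.3%, against 34.2% of all genes tested) were higher and none lower, with a median of 1.21, while the medians of the other clusters lay between -0.19 and 0.30.

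**Figure D3:**
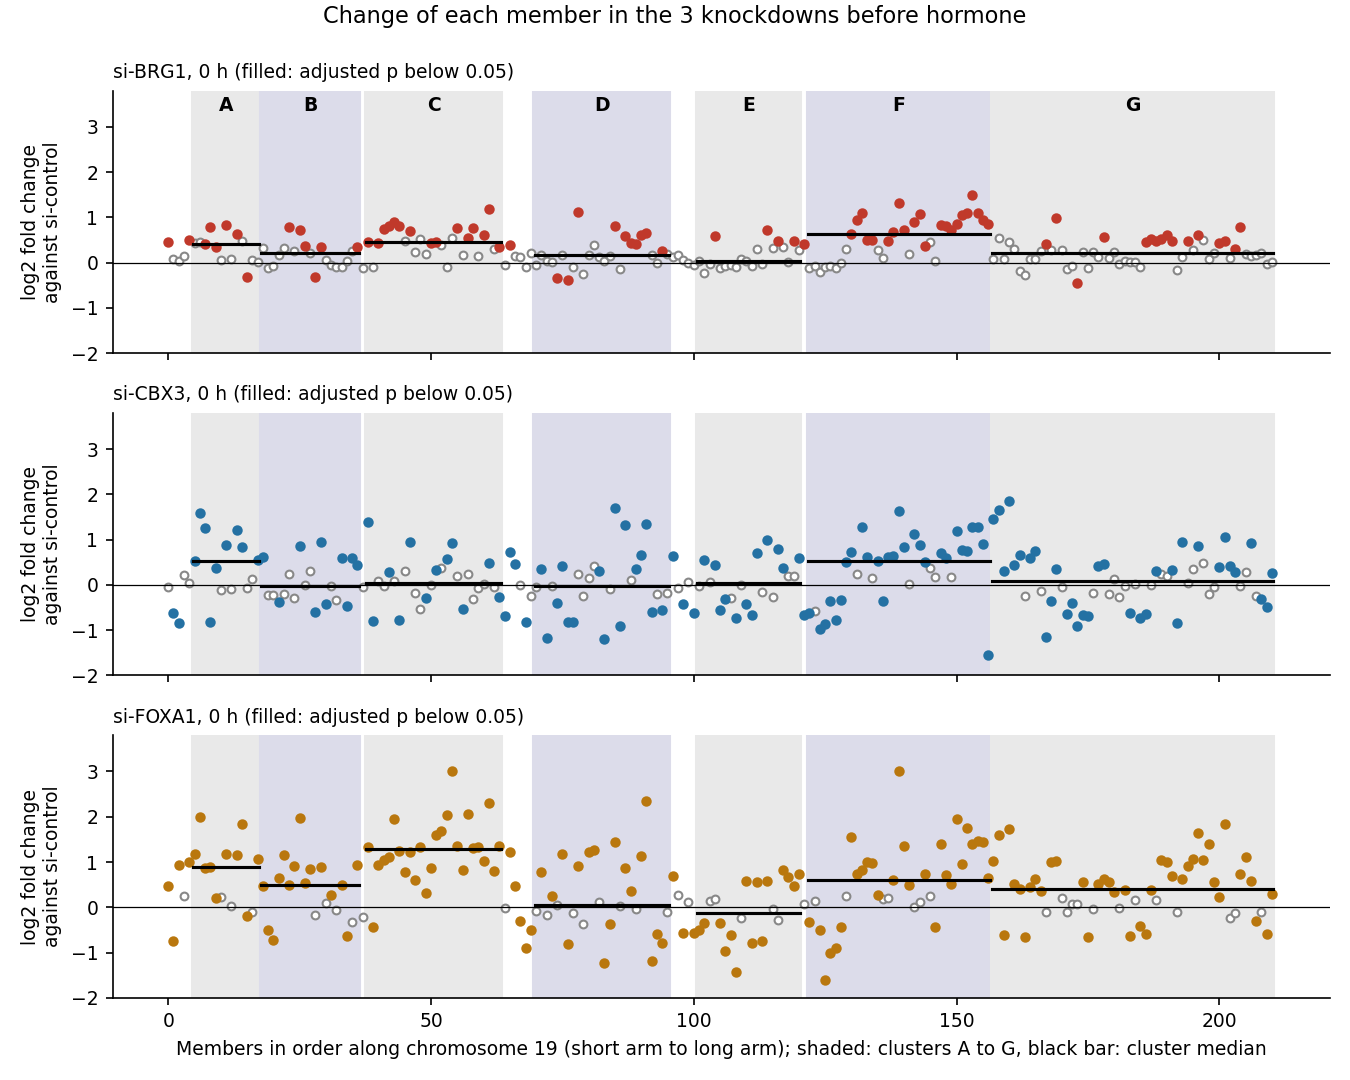
log2 fold change against si-control at 0 h (vertical axis) of the 211 members in order along chromosome 19 (horizontal axis) under si-BRG1, si-CBX3 and si-FOXA1, with filled points for called members, shaded clusters A to G and their medians as black bars. Cluster C stands at a median of 1.28 under si-FOXA1 and 0.05 under si-CBX3, and cluster F above 0.5 under all 3 siRNAs.

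Within cluster F the changes differed along the row of genes. The first 7 members, from ZNF175 to ZNF614 (chr19:52074551-52533493), had no called rise under any of the 3 siRNAs at 0 h. Under si-CBX3 6 of them fell and under si-FOXA1 6 fell, with ZNF649 at -0.97 and -0.50, ZNF613 at -0.86 and -1.60, ZNF350 at -0.34 and -1.01 and ZNF615 at -0.78 and -0.90. Under si-BRG1 none of the 7 was called, and their median change was -0.09. The 28 members from ZNF432 to ZNF331 (chr19:52534632-54083523) had 22 called rises and no fall under si-BRG1, 20 rises and 2 falls (ZNF528 and ZNF331) under si-CBX3, and 21 rises and 1 fall (ZNF816) under si-FOXA1, with medians of 0.76, 0.63 and 0.73. The point of division was chosen after the values were seen, the 3 comparisons share si-control, and no test was made of it. Runs of neighbours with a like change included ZNF845, ZNF525, ZNF765, ZNF761 and ZNF813, which rose under each of the 3 siRNAs, by 0.74 to 1.74.

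**Figure D4:**
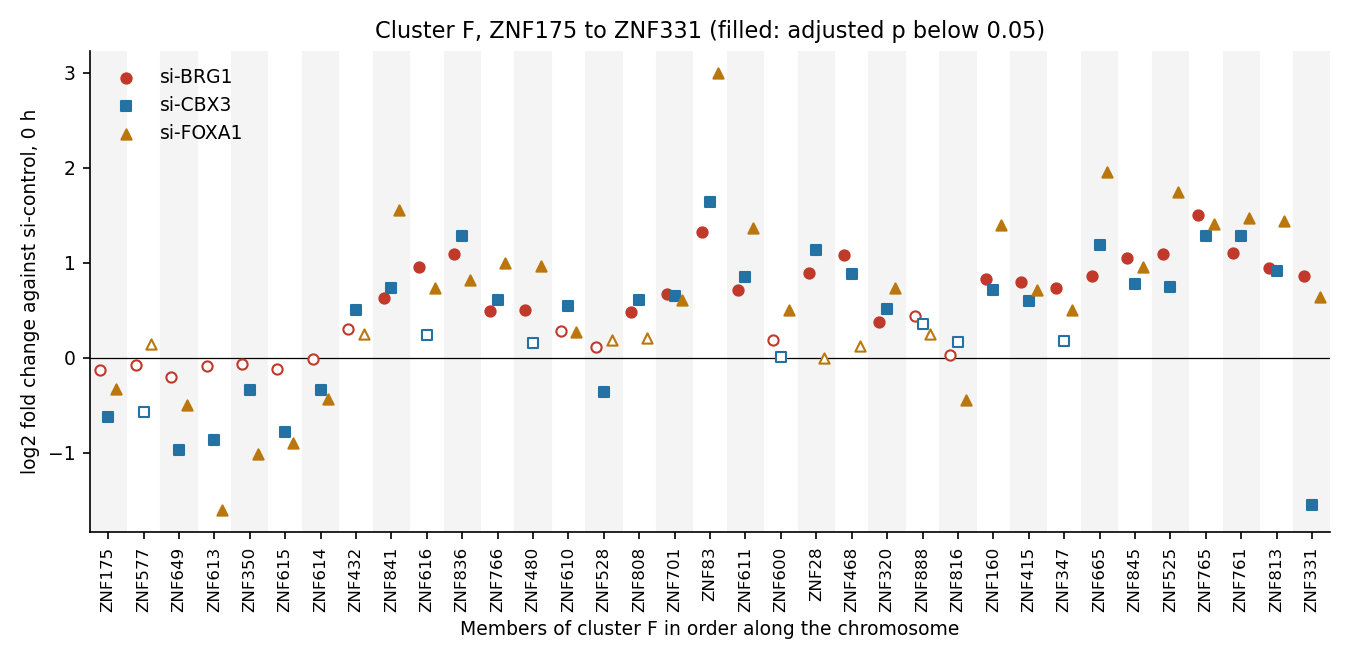
log2 fold change against si-control at 0 h (vertical axis) of the 35 members of cluster F in order along the chromosome (horizontal axis), under si-BRG1 (circles), si-CBX3 (squares) and si-FOXA1 (triangles), filled where called. The first 7 genes lie at 0.15 or below and most of the following 28 above 0.

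After hormone, rises outnumbered falls in every knockdown. At 6 h, 125 members (59.2%) were higher in si-BRG1 than in si-control, against 19.6% of all genes tested, and 17 (8.06%) lower, against 17.8%, with a member median of 0.43. In si-CBX3 75 (35.5%) were higher, against 24.7%, and 23 (10.9%) lower, against 24.4%, with a median of 0.19. In si-FOXA1 143 (67.8%) were higher, against 40.1%, and 29 (13.7%) lower, against 34.5%, with a median of 0.72. Of the ZNF genes on other chromosomes 43.9% were higher in si-BRG1, 42.0% in si-CBX3 and 67.9% in si-FOXA1. Other chromosome 19 genes gave 10.6%, 39.0% and 39.3%. The members thus lay above both sets in si-BRG1, below both in si-CBX3 and near the other ZNF genes in si-FOXA1. The number lower was 9 without si-BRG1 replicate 2 and 8 without si-control replicate 2 for si-BRG1, and 15 without si-CBX3 replicate 1 and 14 without si-control replicate 2 for si-CBX3.

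The values at 6 h come from other libraries than those at 0 h, and many of the same members were called. Of the 78 members higher in si-BRG1 at 0 h, 74 (94.9%) were also higher at 6 h, which was 59.2% of the 125 called then. Over all genes tested the same shares were 64.6% and 49.9%. For si-CBX3 the 54 shared rises were 67.5% of those at 0 h and 72.0% of those at 6 h, against 66.2% and 75.2% over all genes, and for si-FOXA1 the 111 shared rises were 89.5% and 77.6%, against 79.5% and 79.4%. For si-CBX3 both shares were thus near the background. Across the 211 members, which are not independent, the changes at 0 h and 6 h had a Pearson r of 0.758 for si-BRG1, 0.740 for si-CBX3 and 0.840 for si-FOXA1, against 0.394, 0.603 and 0.823 over all genes tested. Under si-BRG1 no member was called in opposite directions at the 2 times, as 0.548% of all genes were. Among all genes the share was 1.04% for si-CBX3 and 2.88% for si-FOXA1. Under si-CBX3 ZNF529, ZNF780A and ZNF667 were lower at 0 h and higher at 6 h, and under si-FOXA1 ZNF792, ZNF585A, ZNF607, ZNF780A and ZNF175 did the same while ZNF296 and ZNF784 went from higher to lower.

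At 6 h ZNF493 was at 0.831 and 1.25 CPM in si-control and 22.01 and 24.8 in si-FOXA1, a difference of 22.5-fold (4.49, SE 0.23, adjusted p = 4.17e-11). The si-FOXA1 level was that of 0 h, and the si-control level was lower than at 0 h. ZNF83 (3.99) and ZNF681 (3.64) were the next largest in si-FOXA1, and ZNF563 (-1.24), ZNF581 (-1.05) and ZNF428 (-1.02) the most negative. In si-BRG1 ZNF83 (1.81), ZNF761 (1.57) and ZNF681 (2.83-fold) rose most, and ZNF428 (-1.04), ZNF580 (-0.78) and ZNF460 (-0.68) fell most. In si-CBX3 ZNF761 (1.77), ZNF83 (1.60) and ZNF865 (1.56) rose most, and ZNF331 (-1.81), ZNF724 (-1.10) and ZNF460 (-0.84) fell most. ZNF580 and ZNF581 share exon bases on 1 strand (16.9% and 23.4% of each).

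In si-control cells more of these genes were lower than higher after 6 h of R5020. No group was kept for 6 h without hormone, so hormone and time cannot be told apart. The change from 0 h to 6 h is called the hormone response throughout. At 6 h against 0 h, 18 members (8.53%) were called higher, against 19.5% of all genes tested, and 66 (31.3%) lower, against 18.1%. The median change was -0.20 over the members and -0.02 over all genes tested. Other ZNF genes gave 33 higher and 59 lower of 212, and other chromosome 19 genes 209 and 90 of 743. The number higher was 11 without si-control 0 h replicate 2 and 11 without si-control 6 h replicate 2.

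ZNF784 (chr19:56132108-56135967, cluster G) rose most, from 2.63 and 2.84 CPM to 7.82 and 9.71, which was 3.20-fold (1.68, SE 0.14, adjusted p = 4.97e-08). ZNF579, of the same cluster, went from 2.02 and 1.85 CPM to 4.27 and 7.83 (1.64, SE 0.23), with the replicates at 6 h far apart, and ZNF296 of cluster E rose by 1.43. ZNF493 fell from 2.92 and 2.87 CPM to 0.831 and 1.25 (-1.47, SE 0.27, adjusted p = 0.000292), and ZNF577 (-1.15) and ZNF792 (-1.06) were the next largest falls. In cluster F 18 members fell and 1 rose, with a median of -0.37, and in cluster D 8 fell and none rose, with a median of -0.32.

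Falls also outnumbered rises in si-CBX3 and in si-BRG1, where the share of falls was near the background. Rises outnumbered falls in si-FOXA1. In si-BRG1 25 members (11.8%) rose, against 18.6% of all genes tested, and 35 (16.6%) fell, against 17.1%, with a median of -0.05 (-0.03 without its 6 h replicate 1 and -0.09 without its 6 h replicate 2). In si-CBX3 33 (15.6%) rose, against 20.4%, and 61 (28.9%) fell, against 20.5%, with a median of -0.11 (-0.03 without its 6 h replicate 1). In si-FOXA1 55 (26.1%) rose, against 19.1%, and 28 (13.3%) fell, against 19.6%, with a median of 0.07. That median was 0.12 without si-FOXA1 0 h replicate 1 and 0.12 without its 6 h replicate 2, and 0.03 without 0 h replicate 2 and 0.03 without 6 h replicate 1. In si-BRG1 14 rose without 0 h replicate 2, and 22 fell without 0 h replicate 1 and 53 without 6 h replicate 2. With only its 4 libraries in the fit 14 rose and 21 fell. In si-CBX3 37 fell without 6 h replicate 1, and in si-FOXA1 27 rose without 0 h replicate 2 and 30 without 6 h replicate 1.

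**Figure D5:**
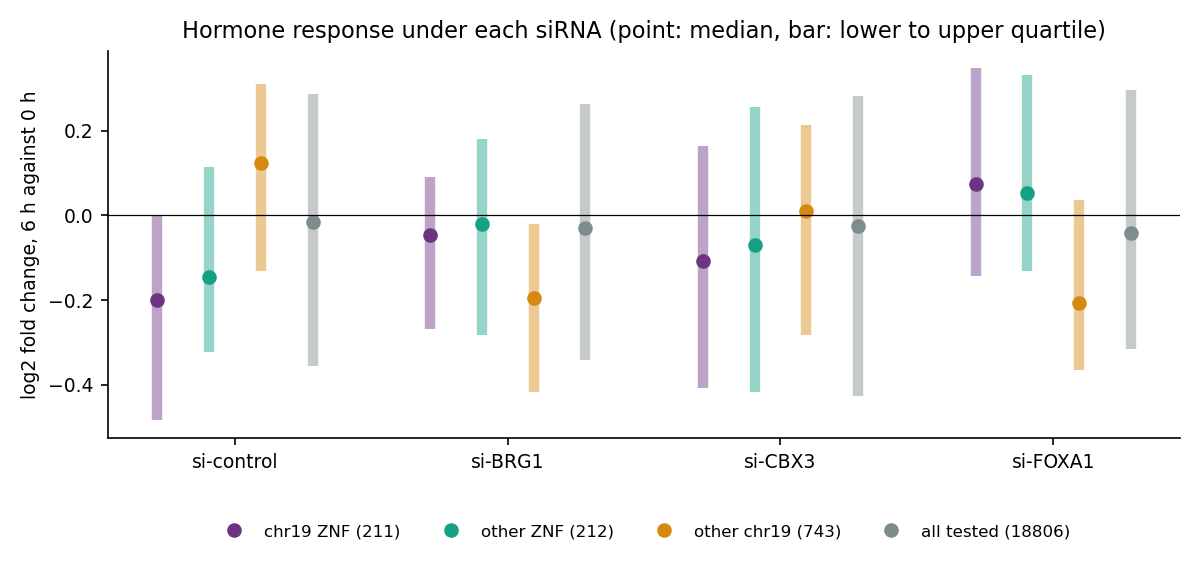
Median (point) and quartiles (bar) of the log2 fold change from 0 h to 6 h of R5020 (vertical axis) under each siRNA (horizontal axis), for the 211 members, 212 ZNF genes on other chromosomes, 743 other chromosome 19 genes and all 18806 genes tested. The member median runs from -0.20 in si-control to 0.07 in si-FOXA1, and that of the other chromosome 19 genes from 0.12 to -0.21.

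In all 4 conditions 4 members (1.9%) were called higher, against 7.46% of all genes tested, and 9 (4.27%) lower, against 5.16%. ZNF254, ZNF579, ZNF761 and ZNF784 made up the first set, and ZNF350, ZNF433, ZNF441, ZNF497, ZNF558, ZNF816, ZNF823, ZNF844 and ZNF875 the second. Of the others, 44 (20.9%) were called in none, against 31.8% of all genes, and 19 (9.0%) in both directions, against 6.19%, among them ZNF83 and ZNF420. The 4 responses come from separate libraries, and across members Pearson's r ran from 0.273 (si-control with si-FOXA1) to 0.712 (si-control with si-BRG1), over 211 genes that are not independent replicates.

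Averaged over the 4 conditions, 44 members (20.9%) rose, against 25.9% of all genes tested, and 77 (36.5%) fell, against 29.8%. ZNF784 rose by 1.36 (SE 0.07, adjusted p = 1.47e-11), and ZNF579 (1.10), ZNF66 (1.08), ZNF563 (1.07), ZNF296 (0.99), ZNF57 (0.77), ZNF761 (0.76) and ZNF254 (0.60) followed. ZNF823 (chr19:11832080-11849824, cluster B) fell by 0.99 on the log2 scale (SE 0.05, adjusted p = 1.87e-11). It went from 17.8 and 14.9 to 8.76 and 9.67 CPM in si-control, from 15.7 and 15.1 to 7.37 and 7.14 in si-BRG1, from 13.5 and 14.6 to 5.69 and 5.71 in si-CBX3 and from 10.1 and 9.65 to 5.81 and 6.13 in si-FOXA1. In each condition both 6 h libraries lay below both 0 h libraries. ZNF493 (-0.97), ZNF441 (-0.86), ZNF350 (-0.77), ZNF844 (-0.75), ZNF556 (-0.67), ZNF792 (-0.66) and ZNF432 (-0.66) were the next largest falls. Cluster F had 23 falls and 2 rises (ZNF761 and ZNF611), cluster B 10 and 2, and cluster A 6 and none, while cluster C had 10 rises and 6 falls.

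The hormone response differed from that of si-control in more members under si-FOXA1 than under the other siRNAs, and the 3 differences share the si-control libraries. The difference of the 2 responses was called positive in 67 members (31.8%), against 13.0% of all genes tested. It was called negative in 16 (7.58%), against 15.7%. Its median, called or not, was 0.29 over members and -0.01 over all genes tested. In clusters D, E and F differences called positive numbered 13 of 26, 11 of 20 and 16 of 35. ZNF284 (1.64, SE 0.28), ZNF493 (1.48, SE 0.32) and ZNF681 (1.35, SE 0.21) had the largest positive differences. ZNF681 was at 2.12 and 2.49 CPM before and 2.27 and 2.16 after hormone in si-control, where the times overlapped, and at 12.2 and 10.3 before and 30.2 and 25.1 after in si-FOXA1, where they did not. ZNF563 went the other way (-1.19, SE 0.19), as it rose from 4.63 and 3.88 to 8.31 and 10.3 CPM in si-control and stayed at 3.93 and 4.28 before and 4.22 and 3.62 after hormone in si-FOXA1. ZNF296 and ZNF628 (both -1.13) were the next most negative. ZNF284 lies near the threshold for membership and shares 43.9% of its exon bases with another gene. The positive count was 42 without si-FOXA1 0 h replicate 2 and 42 without its 6 h replicate 1, and the negative count 10 without si-control 6 h replicate 2.

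Under si-CBX3 22 members (10.4%) were called with a more positive response than in si-control, against 4.63% of all genes tested. A more negative one was called in 8 (3.79%), against 4.36%. ZNF566 (1.14, SE 0.17), ZNF420 (1.09, SE 0.15) and ZNF587B (1.03, SE 0.20) were the most positive, and ZNF737 (-1.11), ZNF552 (-0.85) and ZNF844 (-0.82) the most negative. The call of ZNF844 was lost without si-CBX3 6 h replicate 1 and without si-control 0 h replicate 2. ZNF420 fell from 16.3 and 16.7 to 10.1 and 12.2 CPM in si-control and rose from 7.02 and 7.49 to 10.3 and 10.5 in si-CBX3. The si-CBX3 libraries at 6 h thus lay within the range of those of si-control. ZNF552, the member with the highest level per kb, fell from 124.5 and 128.2 to 60.4 and 61.0 CPM in si-CBX3 and was at 69.4 and 61.5, then 58.2 and 55.3, in si-control. ZNF587B shares 18.6% of its exon bases. The negative count was 3 and 4 without si-CBX3 0 h replicates 1 and 2, 2 and 3 without its 6 h replicates 1 and 2, 2 without si-control 0 h replicate 2 and 4 without si-control 6 h replicate 2.

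Under si-BRG1 3 members (1.42%) were called with a positive difference, against 1.49% of all genes tested. With a negative one 6 (2.84%) were called, against 3.72%, so these counts were near the background. ZNF649 (0.61), ZNF420 (0.60) and ZNF529 (0.51) made up the first group, and ZNF358 (-1.10), ZNF428 (-0.82) and ZNF296 (-0.78) led the second. Over all members, called or not, the median difference was 0.20, against 0.04 over all genes tested. The difference was above 0 in 166 members and below 0 in 45, and in 10163 and 8641 of all genes tested. ZNF genes on other chromosomes gave 134 and 78 (median 0.12), and other chromosome 19 genes 90 and 653 (median -0.31). The member median ran from 0.11 to 0.26 when 1 library at a time was left out. The counts of called members rested on single libraries. The positive count was 30 without si-BRG1 6 h replicate 1 and 0 without any of si-BRG1 0 h replicate 1, si-BRG1 0 h replicate 2, si-control 0 h replicate 2 and si-control 6 h replicate 1. The negative count was 0 without si-BRG1 0 h replicate 1, 2 without its replicate 2, 3 and 1 without si-control 0 h replicates 1 and 2, and 0 without si-control 6 h replicate 2.

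Promoter base composition and exon length moved with some of these differences. Across the 189 members with a RefSeq promoter, GC content had a Pearson r of -0.389 with the difference of the si-FOXA1 from the si-control response, -0.416 with that of si-BRG1 and -0.110 with that of si-CBX3. With the hormone response in si-control itself it had an r of 0.329, and with the changes of the 3 knockdowns at 0 h an r of 0.0235 (si-BRG1), 0.139 (si-CBX3) and -0.0206 (si-FOXA1). Across all 211 members, log2 exon length had an r of 0.334 with the si-FOXA1 difference, 0.277 with that of si-BRG1 and -0.0126 with that of si-CBX3. Its r was -0.251 with the si-control response. With the knockdown changes at 0 h it was 0.207 (si-BRG1), 0.00649 (si-CBX3) and 0.166 (si-FOXA1). Genes share libraries here and are not independent, and the part of GC content or exon length in the counts was not tested. ZNF genes on other chromosomes gave 66 differences called positive and 21 called negative under si-FOXA1, with a median of 0.20. Other chromosome 19 genes gave 27 and 261, with a median of -0.29.

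Of 43 other genes of the KRAB repressor pathway (TRIM28, SETDB1 and partners, HP1 proteins, lysine 9 methyltransferases, the HUSH and NuRD complexes, DNA methyltransferases and related factors) 42 were tested. At 0 h 13 rose (31.0%, against 15.1% of all genes tested) and 7 fell (16.7%, against 13.4%) in si-BRG1. In si-CBX3 15 rose (35.7%, against 28.1%) and 14 fell (33.3%, against 26.0%), and in si-FOXA1 18 rose (42.9%, against 40.0%) and 11 fell (26.2%, against 33.5%), which is near the background. The medians were 0.12, 0.02 and 0.06. TRIM28, the corepressor of KRAB proteins, was at 209.1 and 210.6 CPM in si-control, and it changed by 0.09 (not called) in si-BRG1, -0.21 in si-CBX3 and 0.16 in si-FOXA1. SETDB1, the methyltransferase, fell slightly in all 3 (-0.18, -0.22 and -0.24), and these comparisons share si-control. The NuRD subunit gene MTA1 rose by 0.81, 1.54 and 2.73 in si-BRG1, si-CBX3 and si-FOXA1. CHD3, another NuRD subunit, rose by 0.86 and 1.23 in the first 2, and the deacetylase gene HDAC1 by 0.73 and 0.56. LBR, an inner nuclear membrane protein that binds HP1, fell by 1.45 on the log2 scale in si-CBX3, as did LMNB1 (-0.96), which encodes lamin B1. In si-FOXA1 the H3K9 methyltransferase genes EHMT2 (1.13) and EHMT1 (1.07) and the HUSH subunit gene MPHOSPH8 (1.31) rose, and PIAS1 (-0.74), a SUMO ligase gene, fell. With hormone, averaged over conditions, 11 of the 42 rose (26.2%, against 25.9%) and 15 fell (35.7%, against 29.8%). KDM4B, a lysine 9 demethylase (1.01), and SUV39H1 (0.81) rose, and CHD4 (-0.65) and ATF7IP (-0.56), a SETDB1 partner, fell.

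Some members have known roles. ZNF274 brings SETDB1 to the 3 prime ends of ZNF genes. It was at 40.8 and 36.7 CPM in si-control at 0 h, rose in si-BRG1 (0.31, SE 0.08, adjusted p = 0.0111) and si-CBX3 (0.29, SE 0.08, adjusted p = 0.0074) at that time and was called in none of the 4 hormone responses. At 6 h it was at 0.18 and -0.09 in these knockdowns (not called) and lower in si-FOXA1 (-0.34, SE 0.08, adjusted p = 0.00144). ZNF91 and ZNF93 repress retrotransposons. ZNF91, of cluster C, rose from 15.4 and 13.2 to 36.7 and 34.7 CPM in si-FOXA1 (1.32, SE 0.10, adjusted p = 5.28e-09) and was at 15.9 and 15.7 in si-BRG1 and 13.2 and 14.2 in si-CBX3, where it was not called, all at 0 h. At 6 h it was higher in si-BRG1 (0.46) and si-FOXA1 (2.23) and at -0.13 in si-CBX3 (not called). It fell with hormone in si-control (-0.76), si-BRG1 (-0.44) and si-CBX3 (-0.83) and was at 0.14 in si-FOXA1 (not called), a difference from si-control of 0.91 (SE 0.15, adjusted p = 0.000235). ZNF93 rose by 0.82 in si-BRG1, 0.28 in si-CBX3 and 1.12 in si-FOXA1 at 0 h, and at 6 h the values were 0.88, -0.11 (not called) and 0.56. ZNF224, a KRAB repressor, was lower in si-CBX3 (-0.42) and higher in si-FOXA1 (0.59) at 0 h. At 6 h it was at 0.12 in si-CBX3 (not called) and higher in si-FOXA1 (1.27). ZNF568 rose by 0.30 in si-CBX3 at 0 h and was not called in the other 2, while at 6 h it was higher in si-BRG1 (0.52), si-CBX3 (0.37) and si-FOXA1 (0.66). ZNF444 rose by 0.74 in si-CBX3 and 0.62 in si-FOXA1 at 0 h. At 6 h it was at 0.09 and 0.08 in them (not called) and lower in si-BRG1 (-0.60).

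In cells without siRNA, 206 members had RPKM values, which were summed over transcripts, in 1 library per time, so there is no test. Between 0 h and 6 h 117 members were higher and 89 lower, and the summed level went from 686.6 to 757.4 RPKM. The median log2 ratio with a pseudocount of 0.1 was 0.11 over the members and 0.09 over 17398 tested genes with a value. Of the 18 members that rose with hormone in si-control, 16 were higher here. Of 65 that fell there and had a value, 37 were lower here and 28 higher. ZNF784 went from 0.860 to 2.51 RPKM, ZNF296 from 0.590 to 2.08 and ZNF254 from 5.04 to 9.77, while ZNF823 went from 2.79 to 1.29. ZNF493, which fell in si-control, went from 10.5 to 12.7.

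BRG1 peaks were rare on chromosome 19 as a whole, and so at these genes. Chromosome 19 carried 2 of the 2288 peaks deposited at 0 min and 39 of the 6180 at 30 min of hormone. Within 5 kb of the 5 prime end, no member had a peak at 0 min (1.89% of genes tested did) and 2 had one at 30 min (10.3% of genes tested). With so few peaks on the chromosome, low counts were bound to result. The share was not computed for other chromosome 19 genes, so the counts cannot set the members apart from the rest of the chromosome. A peak at chr19:52772669-52773587 (hg19, the authors' score 62.61) overlapped the 5 prime end of ZNF766, and one at chr19:12475498-12476577 (score 60.95) lay 142 bases from that of ZNF442. The scores are the authors' own values per peak. ZNF766 rose in si-BRG1 at 0 h, from 16.8 and 15.3 to 23.2 and 21.8 CPM (0.49, SE 0.09, adjusted p = 0.000462), and was not called for hormone in si-control (-0.13). ZNF442 was at 2.56 and 2.51 CPM in si-control and 2.46 and 2.24 in si-BRG1 at 0 h, where the change was not called (-0.11), and rose with hormone in si-BRG1 (0.82, SE 0.14, adjusted p = 0.000151). With hormone it fell in si-CBX3 (-0.46, SE 0.14, adjusted p = 0.0148) and si-FOXA1 (-0.54, SE 0.14, adjusted p = 0.00539) and was not called in si-control (0.18). ZNF563, one of the members that rose with hormone, had a peak 7480 bases away.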

How the data were processed

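RNA-seq of 16 siRNA libraries was deposited as raw counts of fragments per gene. Per the file headers, the authors counted with featureCounts 1.4.6-p2 on GENCODE v19 gene models, reverse-stranded and per fragment. The submitters' processing notes name Trimmomatic, STAR, Bowtie 1.0.0 and HOMER with hg19. The deposited score of each BRG1 peak is the authors' own, on a scale that no label or header states. The deposited RPKM values of the libraries without siRNA are per transcript, with no quantification tool named in the labels or headers.

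Counts were fitted over all 16 libraries and 8 groups in 1 model with edgeR 4.0.16 (R 4.3.3; filterByExpr, TMM, quasi-likelihood test, Benjamini-Hochberg over 18806 genes, threshold 0.05), which leaves 8 residual degrees of freedom. Library totals (50017255 to 74374857 fragments) set the counting error. The code was tested on simulated counts. RPKM values were summed per gene, with a pseudocount of 0.1. Tables were made with Python 3.11.15 and pandas 2.3.3.

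Named genes were the siRNA targets, TRIM28, SETDB1 and 8 members with known roles (ZNF91, ZNF93, ZNF224, ZNF274, ZNF331, ZNF420, ZNF444 and ZNF568). They were joined by the 8 largest called rises and falls with no overlap between groups for each knockdown at 0 h, the 8 for the average hormone response and 3 for each other comparison. The 5 highest levels, 3 genes on each side of the threshold, members near a BRG1 peak and the 6 pathway genes of lowest p completed the rule. Other names were chosen after their values were seen. The members, lists and comparisons were chosen with earlier results of these data known. Alternatives were DESeq2 1.42.0, its size factors, no filter on low counts, a replicate block, each library left out (its partner was then taken to vary like the other groups), only the 4 libraries compared, and other thresholds. Classes by protein domain were not analysed here.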

Additional observations from a re-analysis of the deposited data

Results flagged for a closer look

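The hormone response differed between each knockdown and si-control by the interaction term of edgeR's quasi-likelihood test in the members given here, with each value the log2 response under the siRNA minus that in si-control. The 3 sets share the si-control libraries. Under si-BRG1 the difference was called positive in 3 members (1.42%, against 1.49% of all genes tested), ZNF649 (0.61), ZNF420 (0.60) and ZNF529 (0.51). It was called negative in 6 (2.84%, against 3.72%), led by ZNF358 (-1.10), ZNF428 (-0.82) and ZNF296 (-0.78). Both shares were near the background. The calls of all 6 named here were lost without at least 1 of the libraries compared.

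Under si-CBX3 the difference was called positive in 22 members (10.4%, against 4.63% of all genes tested), led by ZNF566 (1.14), ZNF420 (1.09) and ZNF587B (1.03). It was called negative in 8 (3.79%, against 4.36%), led by ZNF737 (-1.11), ZNF552 (-0.85) and ZNF844 (-0.82). The call of ZNF844 was lost without si-CBX3 6 h replicate 1 and without si-control 0 h replicate 2.

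Under si-FOXA1 the difference was called positive in 67 members (31.8%, against 13.0% of all genes tested), led by ZNF284 (1.64), ZNF493 (1.48) and ZNF681 (1.35). It was called negative in 16 (7.58%, against 15.7%), led by ZNF563 (-1.19), ZNF296 (-1.13) and ZNF628 (-1.13).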

How the results depend on the processing

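All 30 counts of members called kept within 1.5 times their value with the DESeq2 Wald test and with DESeq2 size factors. Without a filter on low counts 1 moved, the number with a more positive hormone response in si-BRG1 than in si-control, from 3 to 6. With only the 4 libraries compared, 14 members rose and 21 fell with hormone in si-BRG1. With the replicate block in the fit all 30 counts stayed within 1.5 times, for example 76 higher and 5 lower in si-BRG1 and 124 and 40 in si-FOXA1 at 0 h, and the call of ZNF649 for si-BRG1 was lost. Libraries of the same replicate number showed no strong shared effect. Their deviations from group means correlated at -0.0458 to 0.0928 over the 11 pairs of groups compared and at -0.0587 to 0.117 over all 28. Such values cannot tell whether replicates were handled in pairs. Leaving out 1 library at a time moved 35 counts by over 1.5 times and left 133 within that. It moved 22 of the medians over members by more than the SD between replicates of the median member level, and left 62 within it.

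In those fits, at 0 h, 53 to 68 members were higher and 0 to 4 lower in si-BRG1, 58 to 75 and 41 to 53 in si-CBX3, and 109 to 121 and 35 to 45 in si-FOXA1. At 6 h the ranges were 92 to 131 and 8 to 15 in si-BRG1, 53 to 65 and 14 to 20 in si-CBX3, and 135 to 138 and 26 to 34 in si-FOXA1. Between si-FOXA1 and si-CBX3 they were 89 to 97 and 20 to 26. With hormone, 11 to 17 rose and 47 to 69 fell in si-control, 14 to 33 and 22 to 53 in si-BRG1, 24 to 28 and 37 to 52 in si-CBX3, 27 to 47 and 19 to 27 in si-FOXA1, and 37 to 47 and 68 to 86 on average. Differences from the si-control response were positive in 0 to 30 and negative in 0 to 8 members for si-BRG1, 16 to 24 and 2 to 12 for si-CBX3, and 42 to 70 and 10 to 19 for si-FOXA1. The cause of these moves was not tested, and such a fit has fewer libraries.

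Among 127 pairs of a named member and a comparison, none reversed under the alternatives run, and the call was lost in 39 of the repeated fits and kept in 1310. These pairs were chosen as the largest called changes of the main fit on the same libraries, so this says little about other members. The losses fell on 12 of the 127, namely 5 falls under si-BRG1 at 0 h, 6 differences of the si-BRG1 from the si-control response and that of ZNF844 under si-CBX3. TMM scaling moved the summed level to 1794 CPM in si-control at 6 h, 2341 and 2110 in si-CBX3 at 0 h and 6 h, and 2757 and 2873 in si-FOXA1. With 2 libraries a group, small changes may be missed.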
